A study of Homo sapiens with 3 samples.

Results

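The regions described here were enriched in the DKK-1 chromatin immunoprecipitate when input DNA was the control, but were not called when the mock immunoprecipitate was the control. They were chosen by comparing both deposited peak lists of the DLD-1/DKK-1 library. A peak against input was taken when its interval shared not even 1 bp with any peak against DLD-1/Mock. The list against input held 5281 peaks, and 2092 of them (39.6%) met this rule. They are called input-only peaks below. The other 3189 were shared with the list against DLD-1/Mock, which held 6631 peaks in all. Because the rule used both lists, the tags, scores and fold enrichments given below are descriptions of how the members were chosen and were not tested.

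The DLD-1 line derives from a human colorectal adenocarcinoma. DLD-1/DKK-1 cells were transduced with a lentiviral Tet-On vector for V5-tagged human DKK-1, which doxycycline induces, and DLD-1/Mock cells were their control. Immunoprecipitated DNA from each of the 2 cell populations and an input pool, whose component cells the sources used here do not give, were sequenced as 1 library per condition (3 libraries), so there was no replicate and no spread between replicates to set a difference against. The sample labels name an anti-V5 antibody for both immunoprecipitates, whereas the Methods name a DKK-1 antibody.

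DKK-1 is best known as a secreted inhibitor of canonical Wnt signalling that binds the LRP co-receptors at the cell surface. In the intestinal epithelium Wnt signalling maintains the proliferating crypt cells, and it is active in most colorectal tumors. Chromatin immunoprecipitation recovers DNA fragments bound, directly or through other proteins, by the antibody's target, together with a background of unbound fragments. Input DNA measures the background of chromatin preparation, copy number and alignment, while a mock immunoprecipitate also passes through the antibody and the beads. An input-only peak is therefore a region where enrichment over input was called and enrichment over the mock immunoprecipitate was not.

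A peak at the start of BCL2A1, a BCL2 family member that inhibits apoptosis, was the only input-only peak with its centre within 1000 bp of the start of a transcript in the authors' list of specific sites. It lay at chr15:78050287-78050923 in hg18 and overlapped exon 1 of 2 of the transcript, which runs on the minus strand from 78050697 down to 78040287. Its centre was 92 bp downstream of the transcript start. The peak was 637 bp wide and held 23 DLD-1/DKK-1 tags (95% Poisson interval 14.6 to 34.5). Its score was 90.46 and its fold enrichment 10.98, from 13 tags at the summit. The false discovery rate that the peak caller gave it was 100%. The closest peak against DLD-1/Mock was 7039 bp away, and the transcript also held 1 shared peak. The RefSeq promoter is shown because this peak lies over the start of the gene. It comprises the 250 bases upstream of the start in GRCh38.p14, matched by symbol. The peak was called in another build, so the overlap of peak and printed window was not checked.

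BCL2A1: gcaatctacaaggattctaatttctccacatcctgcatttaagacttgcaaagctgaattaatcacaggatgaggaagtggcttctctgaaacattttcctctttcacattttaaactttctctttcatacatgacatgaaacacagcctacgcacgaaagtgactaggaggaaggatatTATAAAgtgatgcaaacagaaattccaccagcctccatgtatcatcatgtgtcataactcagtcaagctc

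Capitals mark a match to TATAAA, a sequence that the TATA-binding protein can bind. Its first base was 70 bases upstream of the start, and binding there was not tested. Of 35116 promoters of this length, 10.7% held TATAAA on either strand. The other sequence searched was CTTTGAT, a core of the sites bound by the TCF/LEF factors of the Wnt pathway. It was not found in this window on either strand, and 2.26% of the promoters held it.

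Most input-only peaks were small and close to the limit of detection. With at most 2 tags kept per position, the libraries held 21312041 tags (DLD-1/DKK-1), 24151009 tags (DLD-1/Mock) and 27723787 tags (input). At the DLD-1/DKK-1 depth, the genome-wide background was 1.18 tags per 150 bp fragment. Input-only peaks held a median of 15 tags, with quartiles of 14 and 18 and a range of 12 to 1859. The shared peaks held a median of 17 tags. At 12 tags the 95% Poisson limits are 6.20 and 21.0, and this and all other intervals here cover counting error only. Fewer than 16 tags were present in 1120 input-only peaks (53.5%) and in 37.4% of the shared peaks. At the other end, 39 input-only peaks (1.86%) held at least 50 tags and 20 (0.956%) held at least 100. In the shared peaks these shares were 2.51% and 0.721%.

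Scores lay close to the cut-off. As the score is −log10 P multiplied by 10, the cut-off of 1e-05 equals 50. Its median was 54.69 in the input-only peaks and 59.04 in the shared peaks. A score under 55 was recorded for 1092 input-only peaks (52.2%), against 998 shared peaks (31.3%). The lowest score was 50.01, and it was given to peaks such as the one at chr13:80525407-80525883, which held 14 tags. A score of at least 100, or a P value of 1e-10, was reached by 43 input-only peaks (2.06%), where the whole list against input had 2.94%. Fold enrichment at the summit did not differ in its median, which was 7.60 in both sets. It ranged from 3.34 to 20.27 in the input-only peaks. A fold enrichment of at least 10 was reached by 171 of them (8.17%), where the whole list had 9.60%. These percentages follow from the contrasts that chose the peaks.

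**Figure D1:**
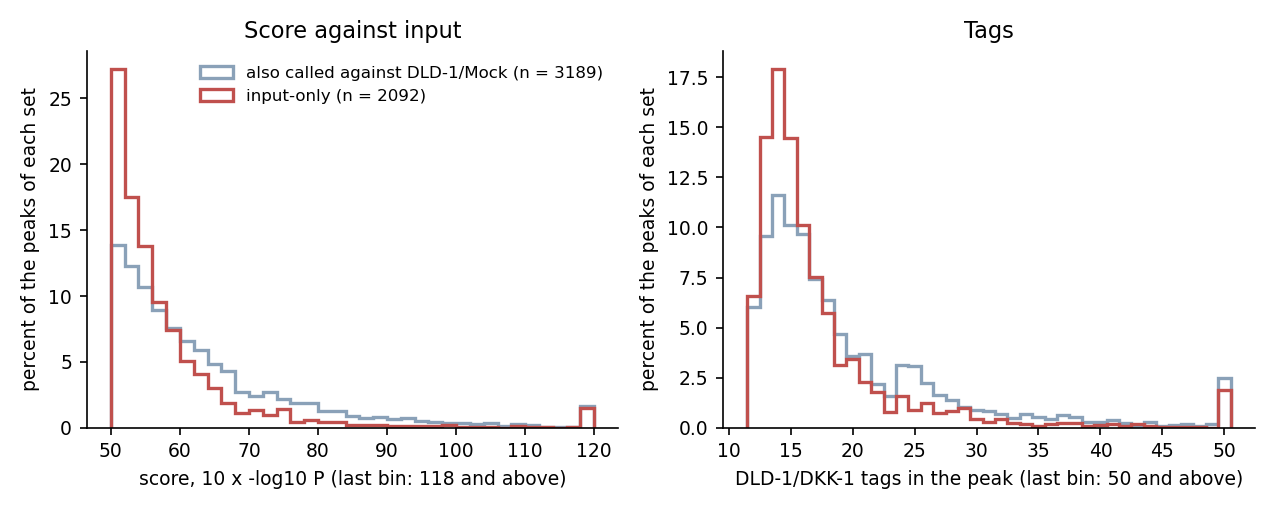
Distribution of the score against input (left, horizontal axis, 10 times −log10 P) and of the DLD-1/DKK-1 tags per peak (right, horizontal axis), with the percent of each set on the vertical axes. The 2092 input-only peaks are concentrated in the bins next to the cut-off of 50 and at 13 to 15 tags, and the 3189 shared peaks have the larger share at scores of 60 and above.

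Width varied little. The median was 460 bp (quartiles 407 and 541, range 251 to 3064), compared with 486 bp in the shared peaks. The empirical false discovery rate of the peak caller, obtained by exchanging ChIP and control, was 65.44% to 100% in the input-only peaks, with a median of 71.05%. It was 100% for 235 of them (11.2%) and for 27.2% of the shared peaks, and several of the peaks with the highest scores were among these.

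The share of peaks that were input-only changed with their size. It was 48.4% (95% Wilson interval 46.4% to 50.5%) among peaks of 12 to 15 tags, 38.2% at 16 to 19 tags, 28.9% at 20 to 29 tags and 21.0% (17.0% to 25.7%) at 30 to 49 tags. Among the 119 peaks of 50 or more tags it was 32.8% (25.0% to 41.6%). The share fell over the first 4 classes and was higher in the last, with intervals of the last 2 classes that overlapped slightly. Most input-only peaks were thus small, and 39 (1.86%) held at least 50 tags, against 2.51% of the shared peaks.

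The lists do not give the mock tags at an input-only peak, but they bound the mock background under an assumption. Each of the 3189 shared peaks started and ended at the same base in both lists, and the input-only regions were assumed to have been tested with the same ends against DLD-1/Mock. The candidate regions themselves are not listed, so this was not checked. From the tags, width and score of a peak, the Poisson formula gives the number of tags that the control led the peak caller to expect. It recovered the deposited score within 0.1 for 1870 of the 2103 peaks (88.9%) whose fold enrichment corresponded to the genome-wide background. This check does not bear on regions far above that background. For 1837 of the 2092 input-only peaks (87.8%), the summit tags implied by fold enrichment and expected tags lay within 0.05 of a whole number. Tag counts are whole numbers, and some of the peaks named below were not in this set. The same formula gives the lowest mock background at which a peak would fall short of the cut-off, if that region was tested at 1e-05. All mock backgrounds of input-only peaks given below rest on this assumption. The background may come from the peak itself or from the surrounding 1000 or 10000 bp.

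For most input-only peaks, a small excess of mock over input background was enough. The lowest possible ratio of mock to input background had a median of 1.09 (quartiles 1.03 and 1.18). It was at most 1.1 for 1122 peaks (53.6%) and at most 1.2 for 1623 (77.6%). In the shared peaks, where both backgrounds follow from the scores, the mock to input ratio had a median of 1, 90% of the values being between 0.718 and 1.24, and it exceeded 1.1 for 15.3%. A ratio of 1 also arises where both backgrounds were at the genome-wide level. This median therefore does not show equal mock and input tags. A ratio above 1.5 was needed for 84 input-only peaks (4.02%), of which 25 were on chromosome 8, and a ratio above 2 for 22 (1.05%). Shared peaks also reached such ratios, with 40 of 3189 above 1.5 and a maximum of 4.70, where the highest value required by an input-only peak was 3.16. How the sets compare follows in part from how they were defined. The input-only value is a lower bound that cannot be below 1. A shared peak had to keep its call against DLD-1/Mock, which limits its ratio. Large input-only peaks required larger ratios. The median was 1.06 at 12 to 15 tags and 1.80 at 50 or more tags, and a ratio above 1.5 was required by 3 of 1120 peaks (0.268%) and 22 of 39 (56.4%), respectively. This relation is in part built into the formula, since a peak far above the cut-off needs more background to lose its call.

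**Figure D2:**
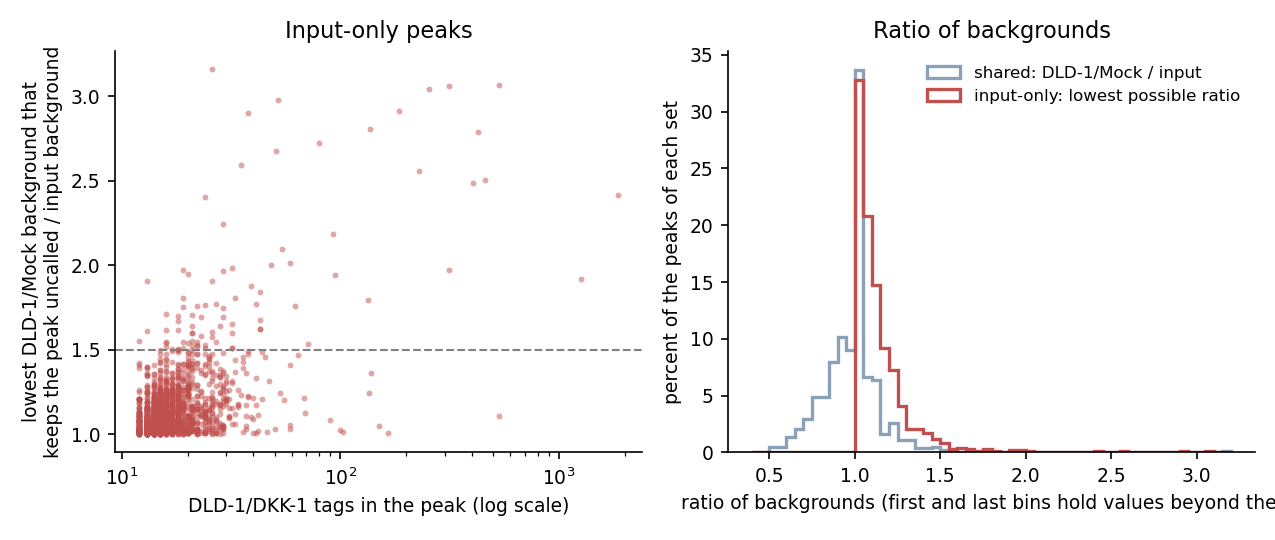
Left, each input-only peak by its DLD-1/DKK-1 tags (log scale) and the lowest ratio of DLD-1/Mock to input background that keeps it uncalled, with a dashed line at 1.5. Right, the percent of each set by ratio of backgrounds, which is the lowest possible value for input-only peaks and the value implied by both scores for shared peaks; most input-only peaks lie below 1.2, and those of over 200 tags lie mostly between 1.9 and 3.1.

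The input-only peak with the highest score and the most tags lay at chr16:33869674-33871985 and was 2312 bp wide. It held 1859 DLD-1/DKK-1 tags (95% Poisson interval 1775 to 1945), where 697 were expected from input, 38.2 times the genome-wide background. Its score was 2898.44 and its fold enrichment 7.26. Under the assumption above, the mock background at this region was at least 1682 tags, 2.41 times that of input, and the DLD-1/DKK-1 tags were at most 1.11 times the mock background. Input was thus far above the genome-wide level, DLD-1/DKK-1 was above input, and the bound put DLD-1/Mock nearly as high or higher.

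The same order held for the next regions. At chr11:84872541-84873026, 530 tags stood against 143 expected from input and at least 438 from mock. At chr2:132728054-132730254, 1263 tags stood against 582 and at least 1118. The peak at chr8:70764734-70765523 held 427 tags against 124 and at least 345, with a fold enrichment of 12.26. It lay in an intron of SLCO5A1, a member of the organic anion transporter family, 7603 bp from the nearest exon. By the same bound, the DLD-1/DKK-1 tags in each of these regions were at most 1.24 times the mock background.

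The remaining peaks among the 10 with the highest scores held 185 to 461 tags. They lay at chrY:10644765-10647006 (461 tags), chr12:126216318-126217165 (314 tags), chr12:20595513-20595891 (406 tags), chr19:40758234-40759007 (255 tags), chr2:229753523-229754252 (229 tags) and chrY:10647515-10648002 (185 tags). Input background was 8.47 to 43.9 times the genome-wide level in these 6 regions, and the mock background at least 21.2 to 109 times. By contrast, the input background over all input-only peaks had a median of 1.07 times the genome-wide level and exceeded 2 times for 70 peaks (3.35%). It exceeded 2 times for 3.73% of the shared peaks. Regions of this kind were therefore rare in both sets, and their sequence was not analysed here.

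The highest fold enrichments belonged mostly to smaller peaks over a low input background. The highest of all, 20.27, was at chr9:105-515, at the end of the chromosome, with 26 tags over an input background equal to the genome-wide level. By the bound, its mock background was at least 3.16 times as high, the largest ratio required by any input-only peak. Next were chr5:174474100-174474824 (51 tags, 17.90), chr4:70330944-70331628 (136 tags, 15.75), chr8:143468029-143468703 (21 tags, 15.20) and, with the same value of 14.36, chr18:75873716-75874158 (20 tags) and chrX:125542607-125543085 (24 tags). Both a score of at least 100 and a fold enrichment of at least 10 were found in 26 input-only peaks (1.24%), where the whole list against input had 1.31%.

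The widest input-only peak, 3064 bp at chr8:43213412-43216475, had a different profile. It held 535 tags where 400 were expected from input, and with a score of 102.74 a mock background only 1.11 times that of input would have been enough to leave it uncalled. The peak at chr19:23975162-23977473, as wide as the chromosome 16 peak, held 313 tags with a fold enrichment of 13.57. Peaks of similar tag number thus differed widely in how far they stood above input.

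Input-only peaks were unevenly spread over the chromosomes. Chromosome 8 carried 468 of them, or 22.4% (95% Wilson interval 20.6% to 24.2%), and 31.8% of the shared peaks. The density was 3.24 input-only peaks per Mb on chromosome 8, against a median of 0.580 and a maximum of 1.14 on the remaining chromosomes, Y excepted. Of those on chromosome 8, 396 (84.6%) lay beyond 65 Mb, a boundary set after the counts had been seen, as did 89.7% of the shared peaks. Chromosome 4 followed with 174 (8.32%), chromosome 1 with 165 (7.89%), chromosome 10 with 137 (6.55%) and chromosome 3 with 128 (6.12%).

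The share of a chromosome's peaks against input that were input-only ranged more widely. It was 10.8% (6.65% to 17.0%) on chromosome X, where 15 of 139 peaks were input-only, 29.4% on chromosome 7, 29.7% on chromosome 9 and 31.6% (29.2% to 34.0%) on chromosome 8. It was 50.9% on chromosome 4, 51.8% on chromosome 2, 57.8% on chromosome 14 and 59.7% (51.6% to 67.4%) on chromosome 18. Chromosome 20 had 4 input-only peaks of 12. All 4 peaks against input on chromosome Y were input-only, and no peak was called there against DLD-1/Mock. The share was thus smallest on chromosome X. It was also below 39.6% on chromosomes 7, 8 and 9 and, with few peaks, on chromosomes 19 (29.8%, 17 of 57) and 20 (33.3%). Coverage along the chromosomes was not analysed here.

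**Figure D3:**
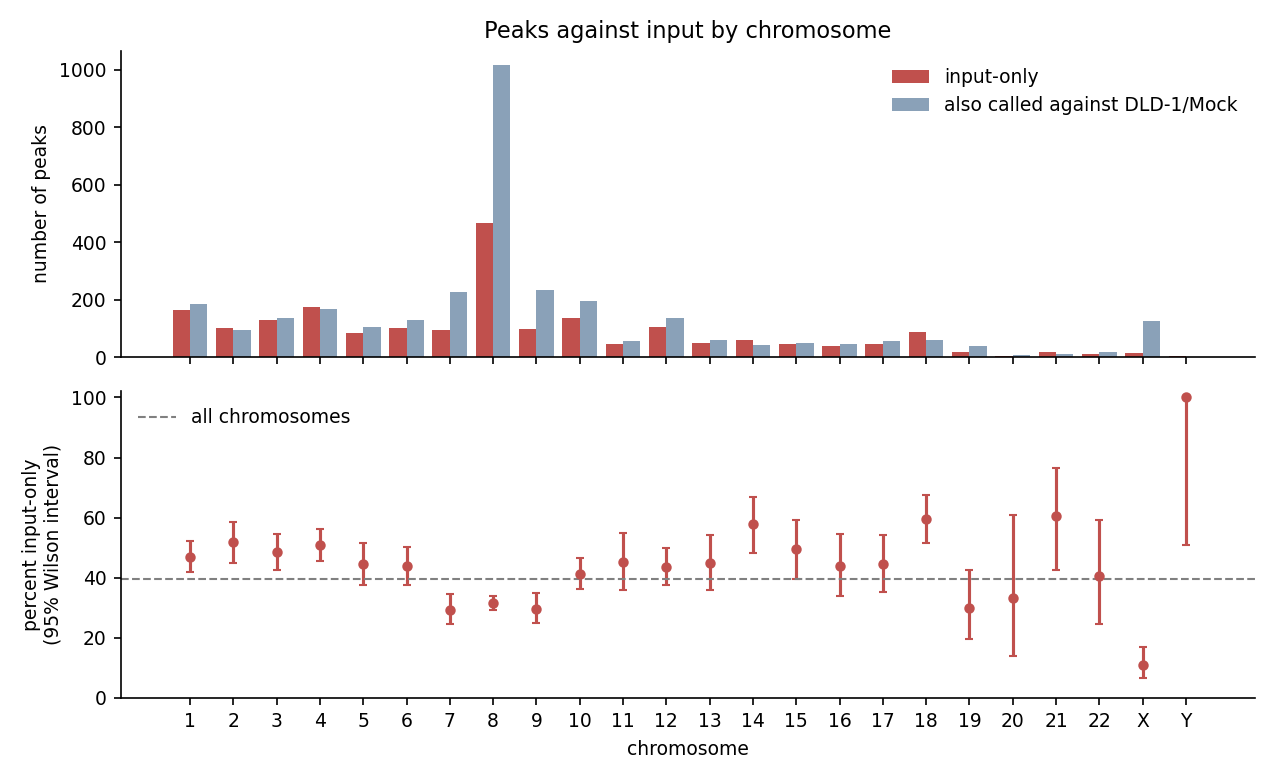
Number of input-only and shared peaks on each chromosome (top), and the percent of the peaks against input that were input-only, with 95% Wilson intervals (bottom, dashed line at 39.6% for all chromosomes). Chromosome 8 has most peaks of both sets, and the share is lowest on chromosome X and, among chromosomes with over 100 peaks, highest on chromosome 18.

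Most input-only peaks had no other input-only peak within 10000 bp, and their spacing was not compared with an even scatter. The gap to the nearest other input-only peak had a median of 255992 bp, with 66851 bp on chromosome 8 and 379780 bp elsewhere. When input-only peaks at most 10000 bp apart were joined, 159 of them (7.60%) fell into 72 groups of 2 or more. The remaining 1933 had no other input-only peak within that distance. Peaks of other kinds were not counted here, and 272 input-only peaks (13.0%) lay within 10000 bp of a peak against DLD-1/Mock. The share in groups was not computed for the shared peaks. Of the groups, 60 were pairs, 10 held 3 peaks, 1 held 4 and 1 held 5.

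The group of 5 spanned 19399 bp at chr2:196710302-196729700, more than 1 Mb (1146245 bp) from any peak against DLD-1/Mock. Its peaks held 59, 26, 22, 20 and 32 tags from left to right, with fold enrichments of 6.12 to 10.12, and each needed a mock background of 1.21 to 1.51 times that of input. No shared peak lay between them. The group of 4 was on chromosome Y (chrY:10632900-10648002) and held 851 tags in all. Among the groups of 3, the ones with most tags were at chr2:132751891-132755830 (239 tags), chr8:58280553-58290678 (100 tags) and chr8:86349054-86356636 (65 tags). The first of these was close to the 1263-tag peak on chromosome 2. Within these 5 groups no shared peak was present.

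Beyond 10000 bp, a row of input-only peaks without a shared peak among them lay at chr8:67650706-67672545, a region chosen after its values were seen. Its 3 peaks held 52, 38 and 35 tags with fold enrichments of 12.88, 14.11 and 13.30. Each required a mock background at least 2.59 times that of input. Peaks called only against DLD-1/Mock, with 21 and 18 tags, lay 31.2 and 46.0 kb from the first. From the third peak, the nearest peak against DLD-1/Mock was 9397 bp away.

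In windows of 1 Mb, 1159 held an input-only peak, 706 of them only 1. At least 5 were present in 59 windows, 40 of which were on chromosome 8. The fullest window was at 91 to 92 Mb of chromosome 8, with 15 input-only peaks next to 13 shared peaks and 12 called only against DLD-1/Mock. The windows at 141 to 142, 70 to 71, 86 to 87 and 110 to 111 Mb of chromosome 8 held 13, 12, 11 and 11. Outside chromosome 8, the fullest were at 64 to 65 Mb of chromosome 12, with 12 input-only and 28 shared peaks, and at 81 to 82 Mb of chromosome 4, with 11 and 15. In both windows the input-only peaks, with at most 36 and 41 tags, were interspersed with the shared peaks, and the tallest peaks were shared. At the other extreme, 301 windows (26.0%) with 412 input-only peaks (19.7%) contained no peak against DLD-1/Mock.

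**Figure D4:**
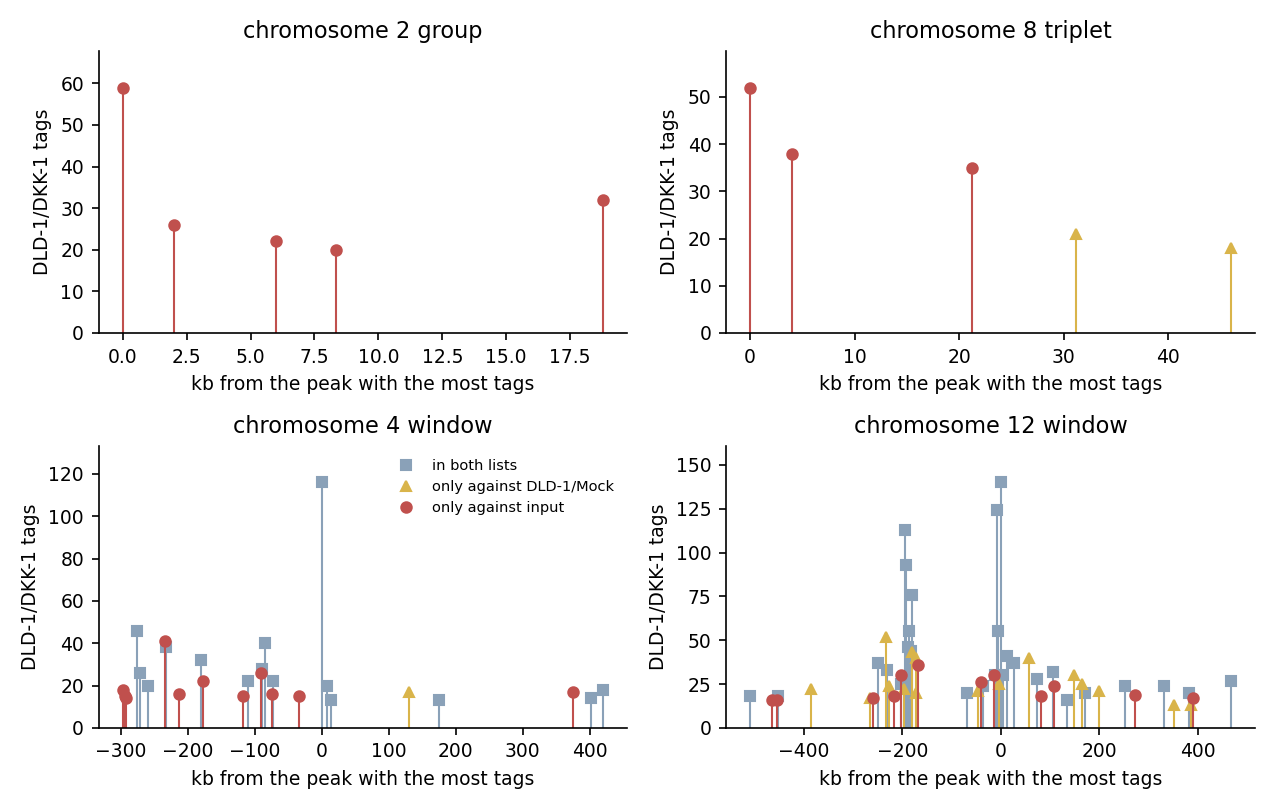
DLD-1/DKK-1 tags (vertical axes) of all peaks in 4 regions, by distance in kb from the peak with the most tags (horizontal axes); circles are input-only peaks, squares shared peaks and triangles peaks called only against DLD-1/Mock. The chromosome 2 group consists of 5 input-only peaks, whereas in the chromosome 4 and 12 windows the tallest peaks are shared and input-only peaks of at most 41 tags lie between them.

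Near misses accounted for few of the input-only peaks. The gap to the nearest peak against DLD-1/Mock had a median of 111382 bp (quartiles 25522 and 367582) for the 2088 peaks off chromosome Y. It was at most 1000 bp for 41 peaks (1.96%), 23 of which were on chromosome 8, and at most 10000 bp for 272 (13.0%). More than 1 Mb separated 153 peaks (7.33%) from the nearest. Just inside the rule were a peak of 22 tags at chr14:51154220-51154797, 53 bp from a peak against DLD-1/Mock, and a peak of 17 tags at chr8:70794984-70795397, also in an intron of SLCO5A1, at 104 bp. Just outside it, no peak overlapped one of the other list in part, since every shared peak matched its counterpart at both ends.

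Gene positions in hg18 were taken from the transcripts that the authors list beside their specific sites, so they cover 82 genes and not the genome. Of the input-only peaks, 42 (2.01%) lay in 22 of these genes, 21 of the peaks on chromosome 8. They held 13 to 427 tags (median 15), 40 were in introns only and 2 touched an exon. Because these genes were listed for having a specific site, the counts do not measure a preference for genes.

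VPS13B, which encodes a lipid transfer protein of the Golgi apparatus, contained the most, with 9 input-only peaks of 13 to 28 tags in a transcript of 864314 bp that also held 22 shared peaks. One of the 9, with 15 tags, overlapped exon 40 of 62. CNTNAP2, a cell adhesion molecule of the neurexin family, had 5 of 14 to 17 tags and 5 shared peaks. PREX2, an exchange factor for the GTPase Rac, had 4 of 13 to 19 tags and 3 shared peaks. The number of input-only peaks did not follow transcript length alone. CNTNAP2 had the longest transcript of the genes with an input-only peak. The EYS and NRG1 transcripts were longer than those of VPS13B and PREX2 but held fewer input-only peaks. Every listed gene with an input-only peak also held a shared peak, so shared peaks did not set these genes apart.

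NRG1 and NRG3 encode ligands of the ErbB receptor tyrosine kinases. In NRG1, 2 intronic input-only peaks of 14 tags each lay at chr8:32126615-32127022 and chr8:32205765-32206152, with fold enrichments of 6.76 and 7.60. In NRG3, a peak of 13 tags lay at chr10:83764547-83764904, with a fold enrichment of 8.45. The non-coding RNA gene LOC554202 had an intronic peak of 17 tags at chr9:21536927-21537416. These 4 peaks had scores of 53.68 to 58.00, around the median of the input-only peaks, and the lowest mock to input ratio that would leave them uncalled was 1.08 to 1.17.

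Pairs were found in EIF2C2, which encodes the Argonaute protein that cleaves RNA targets, in EYS, a gene needed by photoreceptors, in LOC647946 and in SLCO5A1. The other 14 genes, BCL2A1, NRG3 and LOC554202 among them, had 1 each. These included TAF3, a subunit of the transcription factor TFIID, ESRRG, an orphan nuclear receptor, and EIF3H, a subunit of a translation initiation factor. No input-only peak was present in the listed transcripts of REPS2, IQGAP2, MAP2K3, FAM5B, DAPK1, CUEDC2, TMF1 or LONP1. In fold enrichment, 7 of the 42 peaks reached 10, and in score only the SLCO5A1 peak of 427 tags reached 100. Over all input-only peaks these shares were 8.17% and 2.06%, and over the whole list against input 9.60% and 2.94%. Whether the peaks in these genes differed from the rest was not tested.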

How the data were processed

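ChIP-seq libraries of DLD-1/DKK-1, DLD-1/Mock and an input pool were described (1 each). The authors aligned 40 bp reads to hg18 with CASAVA 1.7, kept unique alignments and called peaks on single libraries with MACS 1.4.0beta, with at most 2 tags per position and an effective genome size of 2700000000 bp. The deposited tag number per peak is a raw count. The deposited score is 10 times −log10 P, and the deposited fold enrichment is a ratio of summit tags to expected tags. The false discovery rate is a percent given by the authors' peak caller. Per the file headers, positions count from 1. A further deposited list holds the authors' specific sites with transcripts, of which only the transcript coordinates were used.

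Intervals were intersected, and Poisson tails inverted, in Python 3.11.15 with numpy 2.4.6, pandas 2.3.3 and scipy 1.17.1, with figures in matplotlib 3.10.9. Expected tags were obtained from tags and score as the Poisson mean whose upper tail gives P. The steps were tested on simulated data. Depth was 21312041 to 27723787 tags. No test was made, as conditions had no replicates. Named peaks were the 10 with the highest score, the 5 each with most tags, highest fold or greatest width, the 5 largest groups joined at 10000 bp, the 5 fullest 1 Mb windows, and those in transcripts of genes that the study names. Peaks and windows tied for the last place were all given, except groups of 3, which were taken by their tags. Members and lists were chosen with earlier results of these data known. No hg18 sequence was used here.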

Additional observations from a re-analysis of the deposited data

How the results depend on the processing

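Counts were taken as unchanged within a factor of 1.5, and medians and shares within the spread or interval of counting error. Of the alternatives, 31 left their result within these limits. A P value of 1e-10 or less left 43 peaks, with a median of 62 tags and 682 bp, 32.6% of them on chromosome 8, 6.98% on chromosome 4 and 16.3% with another within 10000 bp. A fold enrichment of at least 10 left 171, with 17 tags, 480 bp, 24.6% on chromosome 8 and 1.17% in groups. Counting peaks within 10000 bp of a peak against DLD-1/Mock as shared gave 455 bp and 17.5% on chromosome 8. Without chromosome 8, the width was 454 bp, the share of chromosome 4 10.7%, the share in groups 5.48% and the distance to a peak against DLD-1/Mock 187998 bp. The share on chromosome 8 has no value there. Means were 20.9 tags and 500.1 bp. Joining at 1000 bp or 100000 bp put 2.39% or 30.9% in groups. The background ratio was added after seeing the data, and 469 peaks needed a ratio above 1.2 and 22 one above 2, in place of 84 above 1.5. Where the implied summit tags were a whole number, 63 peaks needed a ratio above 1.5. The filters by construction lower the counts, and what caused the other changes was not tested.

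With 1 library per condition, a difference of a few tags cannot rank peaks, and a 12-tag peak is uncertain by its Poisson interval alone. No mock tag count is listed at an input-only peak, so the mock background is a bound that assumes the same cut-off. No paired analysis was possible because no test was run and the libraries, 1 for each condition, carry no replicate numbers to pair.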
